A study of Mus musculus with 18 samples.

Results

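Short exonic circles are circular RNAs classed as exonic whose 2 back-splice ends lie fewer than 500 bases apart on the genome, both ends counted. They were picked by class and span alone, with no expression value. Of 208914 circles that Illumina sequencing listed in mouse brain, 4909 met the rule, which is 2.35% of all circles and 3.18% of the 154490 exonic ones. The span ran from 137 to 499 bases with a median of 300. It counts any intron between the ends, so it equals the length of the RNA only where the circle is a single exon.

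The RNA came from whole brains of male C57BL/6J mice aged 3 to 4 months. Wild type mice (WT) were compared with Adar2KO mice (Adar2-/-Gria2R/R) and with Adar1-2KO mice (Adar1E861A/E861A Ifih-/-Adar2-/-Gria2R/R). Both mutants lack ADAR2 and carry the Gria2 R allele, and Adar1-2KO mice also have an ADAR1 with the E861A change and lack Ifih. Effects of the ADAR changes and of these accompanying alleles therefore cannot be told apart. Each genotype had 3 replicates, sequenced on Illumina and by Oxford Nanopore Technologies (ONT). An ONT file of WT replicate 1 was not analysed here, which leaves 9 Illumina and 8 ONT libraries.

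A circular RNA forms when the end of an exon is joined back to the start of the same or an earlier exon, a reaction called back-splicing. The joined exons are often flanked by long introns, and inverted repeats in these introns can pair and bring the ends together. ADAR enzymes turn adenosine into inosine in such double-stranded RNA, and brain, where circles are abundant, has a high level of this editing.

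The sequence at the back-splice junction is what makes a circle visible to sequencing, so it is shown here for 8 circles. The first 6 are the most abundant circles that matched exactly 1 exon, coding throughout or of a long non-coding RNA, and Ptchd4 (called on ONT) and Chsy1 (lowest p between the mutants on Illumina, not called) are described with the genotypes. Each line runs 5′ to 3′ and gives the last 20 and the first 20 bases of the exon. Capitals mark the 4 bases on each side of the join. The letters come from GENCODE M21 transcripts, a GRCm38 annotation, matched to the circles by gene and length, while the coordinates further on are those of the files (GRCm39).
Erc1 junction: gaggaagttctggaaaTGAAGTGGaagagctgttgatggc
Pank1 junction: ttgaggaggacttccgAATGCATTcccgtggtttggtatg
Med13l junction: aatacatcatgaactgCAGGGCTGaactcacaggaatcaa
Pvt1 junction: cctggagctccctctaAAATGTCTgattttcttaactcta
St6galnac3 junction: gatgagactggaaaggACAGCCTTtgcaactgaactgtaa
Lrp6 junction: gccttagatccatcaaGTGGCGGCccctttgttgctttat
Ptchd4 junction: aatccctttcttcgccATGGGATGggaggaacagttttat
Chsy1 junction: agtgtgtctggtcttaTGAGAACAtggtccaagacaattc

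For the Erc1 and Med13l circles the whole exon is shown, because in these circles it is the whole RNA. The Erc1 circle is exon 17 of a transcript with 21 exons, 161 bases with 52.2% G and C. The Med13l circle is exon 2 of 31, 238 bases with 50% G and C. Capitals are not used.
Erc1 exon: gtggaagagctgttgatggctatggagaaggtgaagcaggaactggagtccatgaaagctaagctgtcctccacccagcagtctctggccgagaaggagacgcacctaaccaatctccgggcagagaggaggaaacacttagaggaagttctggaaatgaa
Med13l exon: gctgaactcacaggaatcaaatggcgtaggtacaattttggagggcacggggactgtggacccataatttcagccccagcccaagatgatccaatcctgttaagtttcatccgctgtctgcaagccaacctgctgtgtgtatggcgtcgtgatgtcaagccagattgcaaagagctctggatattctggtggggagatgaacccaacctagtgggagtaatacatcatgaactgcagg

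The exonic makeup of the short circles was read from this annotation by length, for the 4736 circles whose gene it names. The length equalled that of a single exon of the gene for 48.9% of them and the span of several exons with their introns for 30.0%, and 21.1% matched neither. With 7 bases added to every length, as a control for chance matches, these shares were 4.05%, 1.1% and 94.8%. Single-exon matches made up 87.6% of circles of 137 to 199 bases, 61.4% of those of 200 to 299, 26.1% of those of 300 to 399 and 19.6% of those of 400 to 499. Circles of several exons went the other way, from 1.40% in the shortest class to 50.8% and 49.1% in the longer classes. ONT reads, which cover whole circles, gave 1 block for 96.9% of 550 single-exon circles. For 326 of 360 circles that matched several exons, the ONT sequence was shorter than the span.

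The exons that formed single-exon circles were compared with other internal exons of the same transcripts in the same length range. The exon was the second of its transcript in 22.1% of 2097 internal exons with a circle, against 4.21% of 10868 others. The introns on both sides were longer, with medians of 3901 and 3695 bases against 1578 and 1482. These exons were wholly coding in 81.8% of cases against 95.3%, and among wholly coding exons 36.3% against 41.1% had a length that is a multiple of 3. Base composition was close, with a median of 50.7% G and C against 51.3%, and the last bases were AG in 59.6% against 59.3%. The other exons were pooled over transcripts, so transcripts with many exons weigh more among them than among the exons with a circle. How far this weighting alone sets position and intron length apart was not tested. Exons of 1 transcript are not independent, so these shares are descriptions without a test.

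The short circles came from 3410 host genes, and 2460 of these had a single short circle. The host with the most was Malat1, an abundant nuclear long non-coding RNA, with 75 short circles that together had 453 reads over the 9 libraries. Slc35f3, of a solute carrier family, had 10, Rn18s-rs5, a copy of ribosomal RNA sequence, had 9, and Ncor1, a nuclear receptor corepressor, Macf1, a cytoskeletal crosslinker, and Dynll2, a dynein light chain, had 8 each. Their reads were few, from 18 for Dynll2 to 586 for Slc35f3. Hosts with many short circles were thus not those with many reads. Since the counting is not stated to use strand, the host is uncertain where genes overlap, and 28 short circles carry several gene names.

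The reads lay in other hosts. Kmt2a, a histone H3 lysine methyltransferase, led WT brain with 9978 back-splice reads on short circles, followed by Pcmtd1 with 8116, Rbfox1, a neuronal splicing factor, with 7428, Ccar1, a transcriptional coactivator, with 5580, and the predicted gene Gm9762 with 5125. Over all libraries, short circles held 94.8% of the exonic circle reads of Kmt2a, 97.2% of those of Pcmtd1, 86.5% of those of Rbfox1, 90.9% of those of Ccar1 and 99.96% of those of Gm9762. In Erc1, a scaffold of the presynaptic active zone, they held 21.9%, beside longer circles of the same gene. The 10 short circles with the most reads over all libraries took 33.5% of all short-circle reads, and the 10 with the most in WT took 33.2% of those in WT.

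Most short circles were rare. Of the 4909, 2950 (60.1%) were listed in 1 library only, against 48.6% of longer exonic circles, and 136 (2.77%) were listed in all 9, against 5.89%. At least 5 reads in at least 3 libraries, the limit for testing, were reached by 853 (17.4%), against 22.3% of longer exonic circles. Among circles that passed this limit the median level in WT was close, 4.35 CPM for short and 4.40 CPM for longer ones. The highest short circle had 1360 CPM and the highest longer one 18577 CPM. CPM is a count scaled to the size of the library, here computed from the back-splice reads, with TMM-scaled totals for each library.

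The most abundant short circle, that of Kmt2a (chr9:44740081-44740568, 488 bases, span of several exons), had 1397, 935 and 1749 CPM in WT replicates 1 to 3. It had 2067, 1623 and 1855 CPM in Adar2KO and 2024, 1940 and 477 CPM in Adar1-2KO. The WT and Adar2KO groups overlapped, and Adar1-2KO replicate 3 was the lowest library of all. A Kmt2a circle that is 3 bases shorter at one end (485 bases) accompanied it at 10.7% to 15.4% of the summed reads of the pair in every Illumina library. Such near-copies were few. Among the 4909 short circles, 45 pairs shared one end and differed by 2 to 5 bases at the other.

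The Rbfox1 circle (chr16:7042175-7042414, 240 bases, 1 exon) had 1084, 961 and 1458 CPM in WT, 1962, 1600 and 1721 CPM in Adar2KO and 1751, 2142 and 1102 CPM in Adar1-2KO. All 3 Adar2KO libraries lay above the WT libraries, but the change did not pass, at 0.59 ± 0.22 (log2, SE) with an edgeR adjusted p of 1.0. Adar1-2KO overlapped WT. The Erc1 circle (chr6:119671532-119671692) had 524, 601 and 1074 CPM in WT, 980, 562 and 1763 CPM in Adar2KO and 955, 1068 and 110 CPM in Adar1-2KO. Its groups overlapped in every comparison.

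The Gm9762 circle (chr3:78873709-78874082, 374 bases) showed the widest spread within WT, at 1143, 103 and 1018 CPM, against 957 to 1206 CPM in Adar2KO and 629 to 1046 CPM in Adar1-2KO. Its length matched no exon, and it is the only circle of the 10 whose splice ends ONT gives with an asterisk. The circle of Pcmtd1, a protein with a methyltransferase domain (chr1:7190418-7190839, exon 2 of 6), held 1164 ± 301 CPM in WT (SD, n = 3). The Adar2KO mean was 996 ± 160 CPM and the Adar1-2KO mean 932 ± 111 CPM. The circle of Med13l, a subunit of the Mediator complex (chr5:118731398-118731635), ranged from 401 to 667 CPM over the 9 libraries, with group means of 462 ± 82.6, 594 ± 70.2 and 568 ± 25.8 CPM.

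Of the others, the circle of Pank1, which makes the first step of coenzyme A synthesis, ranged from 506 to 1036 CPM in WT and Adar2KO and stood at 136 CPM in Adar1-2KO replicate 3. The Ccar1 circle held 755 ± 70.3 CPM in WT and 1081 ± 165 CPM in Adar1-2KO (SD, n = 3). Each Adar1-2KO library lay above each WT library, but the change did not pass (edgeR adjusted p of 0.790). None of the 10 circles passed the test in a comparison of genotypes on Illumina.

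**Figure D1:**
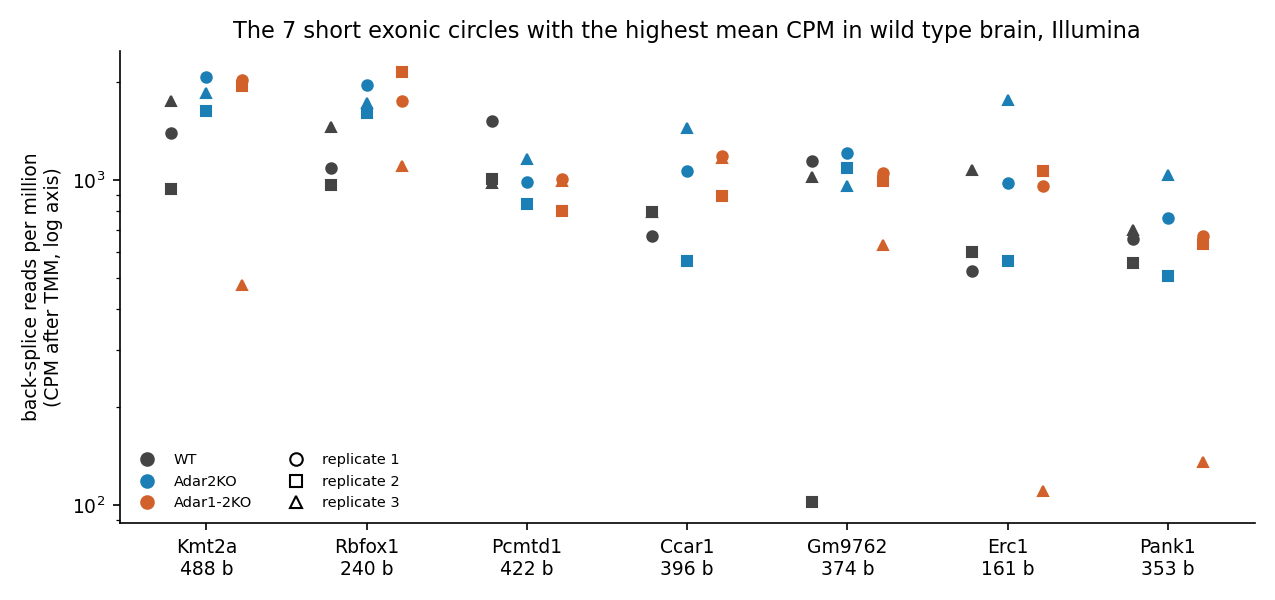
Level of the 7 short exonic circles with the highest mean CPM in WT, in each of the 9 Illumina libraries (y axis, CPM on a log axis; colours are genotypes and symbols replicates; span in bases under each gene). The single low points are Adar1-2KO replicate 3 for Kmt2a, Erc1 and Pank1, and WT replicate 2 for Gm9762 at 103 CPM.

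Libraries held 1516772 to 4308264 back-splice reads. Adar1-2KO replicate 3 stood apart, with the most reads and the fewest circles, 21736 against 54244 to 76743 in the others, and it came from flow cells 6 and 7, which were seen in none of the other 7 libraries with a known flow cell. WT replicates 1 to 3 and Adar1-2KO replicate 2 came from flow cell 1 alone, as did 87.3% of the sampled reads of Adar2KO replicate 3, while flow cell 4 gave 90.1% and 95.8% for Adar2KO replicates 1 and 2. The flow cell of Adar1-2KO replicate 1 is not known. The genotype check was the Adarb1 circle with most reads (Adarb1 encodes ADAR2), listed in no WT library and with 134 to 724 reads in the 6 mutant libraries.

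The share of short circles was compared between genotypes to see whether the class as a whole moved. WT replicates 1 to 3 listed 1511, 1172 and 1226 short circles, Adar2KO 1637, 1362 and 1553, and Adar1-2KO 1565, 1348 and 348. They took 2.36%, 1.91% and 2.73% of the back-splice reads in WT and 2.92%, 2.30% and 3.14% in Adar2KO. For Adar1-2KO the shares were 3.06%, 2.96% and 2.15%, and all groups overlapped. The means were 2.33 ± 0.411% in WT, 2.79 ± 0.435% in Adar2KO and 2.72 ± 0.500% in Adar1-2KO (SD, n = 3), and a two-sided exact permutation test gave p = 0.3 for each mutant (adjusted 0.6 over 8 tests). With 3 against 3 libraries this test cannot go below 0.1. Within flow cell 1 each mutant has 1 library, with 3.14% in Adar2KO and 2.96% in Adar1-2KO against 1.91% to 2.73% in WT, which was not tested for 1 library against 3. In bulk brain RNA, fewer cells of a type and less RNA per cell cannot be told apart.

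**Figure D2:**
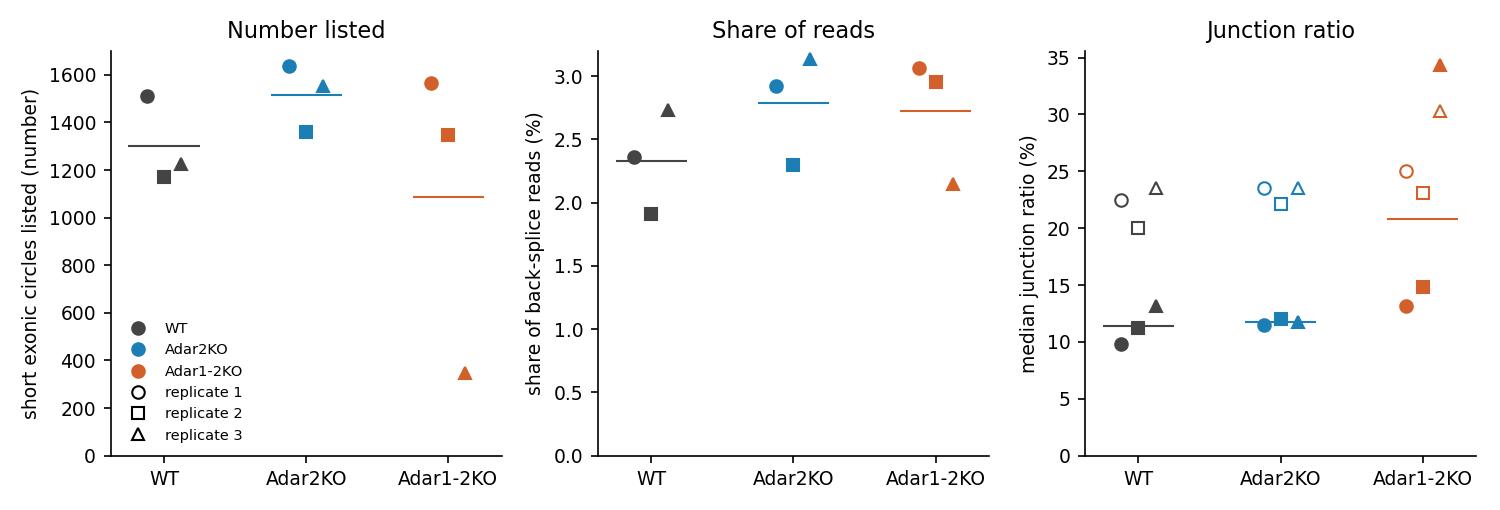
Short exonic circles in the 9 Illumina libraries: number listed (left), share of all back-splice reads in percent (middle) and median junction ratio in percent (right), with filled symbols for short circles, open symbols for longer exonic circles and a line at the group mean of short circles. Adar1-2KO replicate 3 lists 348 short circles and has a median junction ratio of 34.4%, while the other 8 libraries list 1172 to 1637 and lie between 9.84% and 14.8%.

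The junction ratio says how much of the RNA at the splice sites of a circle is circular. Each back-splice read counts for both ends, and their number is divided by itself plus that of the forward-splice reads. After RNase R, which digests linear RNA, it is no measure of the share in the cell. Its median over the short circles was 9.84%, 11.2% and 13.1% in WT and 11.5%, 12.0% and 11.7% in Adar2KO. In Adar1-2KO it was 13.1%, 14.8% and 34.4%. Each Adar1-2KO library lay above each WT library, the closest pair at 13.14% and 13.12%, and the exact permutation p was 0.1, the smallest possible (adjusted 0.6). The difference of 9.39 points between these groups fell to 2.59 points without Adar1-2KO replicate 3.

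In 8 of 9 libraries the median of short circles was lower than that of longer exonic circles, with differences of -12.6 to -8.27 percentage points. In Adar1-2KO replicate 3 it was higher, 34.4% against 30.3%. The short circles that this library listed had a median of 46.5 back-splice reads, against 5 to 8 in the other 8, so its medians are over more abundant circles. The difference between short and longer circles did not run evenly over the spans. In the 8 libraries, circles of 137 to 199 bases had medians of 5.56% to 13.6%, those of 400 to 499 bases 10.7% to 16.3%, those of 500 to 999 bases 9.60% to 15.4% and those of 1000 to 9999 bases 12.5% to 16.7%. Only circles with ends 10000 bases or more apart stood higher, at 29.6% to 36.4%. The ranges over libraries of all classes up to 9999 bases thus overlapped. Within each of the 9 libraries, however, the shortest class had the lowest median of all classes. Medians of forward-splice reads in the same 8 libraries were 69 to 193 in the 4 short classes, against 27 to 37 for spans of 10000 bases or more. Among circles with at least 20 back-splice reads, Adar1-2KO replicate 3 had the highest median at 200 to 299 bases, 70.4% against 47.1% to 68.5%. It lay within the range of the other 8 libraries in the other classes under 500 bases. From 500 bases upwards it was the lowest in each class, at 48.9% to 57.8%.

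**Figure D3:**
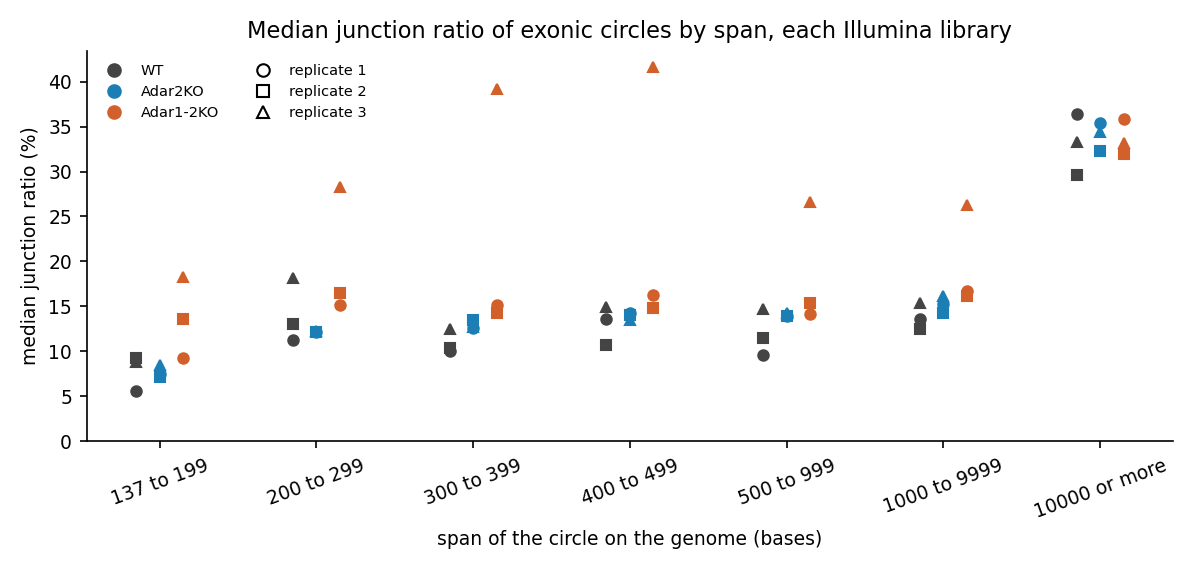
Median junction ratio (y axis, percent) of exonic circles by span (x axis, bases) in each of the 9 Illumina libraries. Apart from Adar1-2KO replicate 3, all spans up to 9999 bases lie between 5.56% and 18.2%, and spans of 10000 bases or more lie between 29.6% and 36.4%.

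The junction ratios of single short circles covered nearly the whole range. A ratio of 100% means that no forward-splice read was counted. Such reads were often absent for a circle in some libraries and present in others, and the cause was not found. Among 118 short circles with at least 20 reads, back-splice and forward-splice together, in every library, those of Rere, a corepressor (469 bases), and of the long non-coding RNA Pvt1 (318 bases, exon 2) had 100% in all 9 libraries. The Kmt2a circle of 488 bases had 99.2% in Adar1-2KO replicate 2 and 100% in the others. The circle of Tenm1, a teneurin (280 bases), had 92.5% in Adar2KO replicate 3 and 100% elsewhere, and that of Gm9762 had 93.7% to 99.8%.

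At the low end stood the circle of Rsrc1, a splicing-related protein (174 bases), at 2.02% to 9.67%. The circle of Cs, the citrate synthase (200 bases), had 0.634% to 14.1%, and that of Pacsin1, an adaptor of endocytosis (468 bases), 0.630% to 14.8%. The circles of Bsn, the active zone scaffold Bassoon (409 bases), and of Akap6, an anchor of protein kinase A (364 bases), had 1.37% to 12.3% and 0.317% to 12.3%. A low ratio did not go with few reads in each of these circles. The Pacsin1 circle had 97.3, 18 and 16 CPM in WT, 109, 139 and 134 CPM in Adar2KO and 129, 160 and 93.0 CPM in Adar1-2KO. The Adar2KO libraries lay above WT and the Adar1-2KO libraries overlapped it, and neither passed (edgeR adjusted p of 1.0 and 0.718). Of short circles with at least 50 back-splice reads, 7.60% to 29.2% per library had no forward-splice read, against 17% to 44.8% of longer exonic circles.

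The first comparison of genotypes was Adar2KO against WT. No short circle passed edgeR's quasi-likelihood test on Illumina, 0 of 853 at a Benjamini-Hochberg adjusted p of 0.05, where the background over all circles was 0.0209% of 38297. At an unadjusted p under 0.05 stood 28 of the 853 (background 1.82%), and DESeq2 called 0 (background 0.0888%). With no limit on reads, 2 of 4909 passed (background 0.0455%), the circles of Rbfox1 and Zeb1. The median log2 fold change was 0.22 for short circles and 0.04 for all circles tested, with 508 of the short circles higher and 345 lower. Of all 38297 circles tested, 19871 were higher. The groups did not overlap for 9.85% of short circles, 57 higher and 27 lower, against 10.9% of all circles tested, 2186 higher and 2002 lower. This share lies near the background and is no result about short circles.

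The short circle with the lowest p was that of the predicted gene Gm35658 (199 bases), with 9, 6 and 0 reads in WT and 58, 64 and 155 in Adar2KO. In Adar1-2KO it had 104, 11 and 18 reads. The log2 fold change of Adar2KO against WT was 4.12 ± 1.25 (SE), with an edgeR adjusted p of 1.0. The authors' deposited table of this comparison lists the same circle at a log2 fold change of 3.74 and an adjusted p of 0.0062. It is the only one of the 27 short circles listed there that lies under 0.05, where 46 of all 772 circles listed do. All 772 have an unadjusted p under 0.05, so the table holds only circles preselected in this way. The Gm35658 circle was on no ONT library. The next circles by p were those of Zeb1, Mto1, Arf4 and Pde4a. The Pde4a circle, of a cAMP phosphodiesterase (355 bases), had 17, 9 and 10 reads in the Adar2KO libraries and none in the other 6, and the Arf4 circle, of a small GTPase (365 bases), had 3, 7 and 7 in WT and none in Adar2KO. Both were listed at few reads, and neither passed.

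For Adar1-2KO against WT, again 0 of 853 short circles passed on Illumina, with a background of 0.0627%. An unadjusted p under 0.05 was reached by 78 (background 6.74%), and DESeq2 called 4 (background 0.454%), those of Zswim6, Zeb2, Mto1 and Ccdc173. With no limit on reads 14 of 4909 passed (background 0.208%). The median log2 fold change was -0.22 for short circles and -0.26 for all. Without Adar1-2KO replicate 3 these medians turned to 0.20 and -0.04. Within flow cell 1, where each mutant has 1 library that is assumed to vary like the others, 590 short circles were tested, 0 passed, and their median was 0.36 for Adar2KO and 0.14 for Adar1-2KO against WT. The groups did not overlap for 8.32% of short circles against 12.6% of all. With the mapped reads of each library as its size, the medians were 0.12 and 0.07 with all libraries kept, with 457 short circles higher and 393 lower, against 373 and 477 with TMM scaling. Of all 38297 circles tested, 15796 were higher with TMM scaling and 20033 with the mapped reads. The sign of the median thus depended on 1 library and on the scaling. The same scaling gave 0.36 for short circles and 0.16 for all in Adar2KO against WT, and -0.19 and -0.10 between the mutants, with 0 short circles passing in each comparison.

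The circle with the second lowest p lies in Zeb2, a transcription factor gene that the files name together with Mir5129 (chr2:44912859-44913116, 258 bases). It had 0, 18 and 5 reads in WT and 9, 2 and 19 in Adar2KO. The Adar1-2KO libraries had 255, 154 and 344 reads. All 3 Adar1-2KO libraries lay far above the other 6, at 80.4 ± 8.42 CPM against 3.95 ± 4.29 in WT and 3.79 ± 2.92 in Adar2KO (SD, n = 3). The log2 fold change against WT was 4.35 ± 1.18 (SE) and the edgeR adjusted p 0.690. DESeq2 gave an adjusted p of 0.0109 for the same circle. ONT listed it only in Adar1-2KO, with 14, 5 and 19 reads, and its adjusted p there did not pass (edgeR, 0.645).

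The Mto1 circle, of a mitochondrial tRNA-modifying enzyme (397 bases), had the lowest p. It had no reads in WT and 3, 10 and 15 in Adar2KO. The Adar1-2KO libraries had 26, 5 and 526 reads, so most of its reads lay in replicate 3. Its edgeR adjusted p was 0.338. The circles of Zswim6 (357 bases) and of Uvrag, an autophagy gene (162 bases), went the other way. The Zswim6 circle had 9, 23 and 6 reads in WT, the Uvrag circle 10, 9 and 10, and neither had a read in Adar1-2KO (edgeR adjusted p of 0.718 for both). The authors' deposited table holds 3598 short circles of 160909 for this comparison, and 1 of them has an adjusted p under 0.05. It is the Gm9222 circle of 388 bases, with a log2 fold change of 7.14 and an adjusted p of 0.00109. Of all 160909 circles, 54 have an adjusted p under 0.05 and 2126 an unadjusted p under 0.05. Unlike the deposited table for Adar2KO, this one is thus not limited to circles with a low unadjusted p.

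For Adar1-2KO against Adar2KO, which share the loss of ADAR2 and the Gria2 allele, 0 of 853 short circles passed on Illumina, with a background of 0.0209%. Here 59 had an unadjusted p under 0.05 (background 6.38%), and DESeq2 called 4 (background 0.431%), those of Zeb2, Zswim6, Phlpp2 and Cops4. With no limit on reads 12 of 4909 passed (background 0.178%). The groups did not overlap for 8.79% of short circles, against 11.8% of all circles tested. The lowest p belonged to the circle of Chsy1, a chondroitin synthase (chr7:65774990-65775485, 496 bases, exon 2 of 3), whose junction is shown above. It had 167, 149 and 165 CPM in WT, 47.8, 116 and 175 CPM in Adar2KO and 468, 479 and 248 CPM in Adar1-2KO. All Adar1-2KO libraries lay above the others, with a log2 fold change of 1.82 ± 0.43 (SE) against Adar2KO and an edgeR adjusted p of 0.451. The circles of Phlpp2, a protein phosphatase, and Cops4, a subunit of the COP9 signalosome, were listed in all 3 Adar2KO libraries, with 14 to 32 and 8 to 63 reads, and in no Adar1-2KO library.

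ONT gave 190 short circles enough reads for a test. Against WT, 0 of 190 passed in Adar2KO (background 0.00965%) and 0 in Adar1-2KO (background 0.0%), where 13 and 16 had an unadjusted p under 0.05 (backgrounds 4.21% and 7.32%). DESeq2 called none in either (backgrounds 0.0386% and 0.376%). Between the mutants, 4 of 190 passed, 3 higher and 1 lower in Adar1-2KO, with a background of 0.473%. Here 36 had an unadjusted p under 0.05 (background 10.4%), and DESeq2 called 6 (background 1.47%). The median log2 fold change in this comparison was -0.06 for short circles and -0.21 for all circles tested. The ONT groups did not overlap for 36.8% of short circles in Adar2KO against WT, which has 2 libraries, 56 higher and 14 lower. All circles tested gave 28.6% and also leaned upwards, with 1872 higher and 1094 lower. The shares were 20.5% in Adar1-2KO against WT (background 23.6%) and 30% between the mutants (background 21.4%).

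The Ccar1 circle (chr10:62612347-62612742, 396 bases) changed most clearly. ONT gave it 98.8, 131 and 126 CPM in Adar2KO and 621, 553 and 771 CPM in Adar1-2KO, beside 340 and 270 CPM in WT. The Adar2KO libraries were the lowest and the Adar1-2KO libraries the highest, with WT between them and no overlap. The log2 fold change between the mutants was 2.45 ± 0.26 (SE, n = 3) with an edgeR adjusted p of 0.00487. The circle passed in each of the 14 alternatives, with edgeR or DESeq2 adjusted p from 2.23e-10 to 0.0418. Here, and for Rab3gap2 and Ptchd4 below, the 14 include the same fit at a limit of 0.1. A circle called at 0.05 cannot fail that one. On Illumina the same circle had 1061, 564 and 1443 CPM in Adar2KO and 1187, 891 and 1166 CPM in Adar1-2KO, a log2 fold change of 0.08 ± 0.27 (edgeR adjusted p of 1.0). The Illumina groups overlapped.

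The Rab3gap2 circle (chr1:184999098-184999476, 379 bases, exon 2), of a regulator of Rab3 GTPases in synaptic vesicle release, had 152, 128 and 126 CPM in Adar2KO and 411, 343 and 523 CPM in Adar1-2KO on ONT. Its log2 fold change was 1.66 ± 0.27 (SE), with an edgeR adjusted p of 0.0303. Each Adar1-2KO library lay above each Adar2KO library, but the call was less firm than that of Ccar1. It held in 6 of 14 alternatives, with adjusted p up to 0.219, and was lost without either WT library, any single Adar2KO library or Adar1-2KO replicate 1.

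The Ptchd4 circle (chr17:42688051-42688531, 481 bases, exon 3 of 4), of a gene with a patched domain, fell. ONT gave it 508, 490 and 476 CPM in Adar2KO and 197, 128 and 131 CPM in Adar1-2KO, beside 315 and 276 CPM in WT. The log2 fold change was -1.69 ± 0.26 (SE), at an edgeR adjusted p of 0.0224, and 8 of 14 alternatives kept the call, with adjusted p up to 0.119. On Illumina the circle had 230, 208 and 128 CPM in Adar2KO and 159, 176 and 186 CPM in Adar1-2KO, which overlapped. The Illumina log2 fold changes between the mutants were 0.55 ± 0.30 for Rab3gap2 and -0.12 ± 0.34 for Ptchd4 (SE), and neither passed. Whether the ONT and Illumina changes differ was not tested. Without any single WT or Adar2KO library the ONT call of Ccar1 was the only one of the 4 that remained in each case.

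The circular share of a circle was taken as back-splice reads divided by forward-splice reads, on the log2 scale after adding 0.5 to each, and was tested with limma for the 118 short circles that had at least 20 reads in every library. None passed in Adar2KO against WT (background 0.0787%), Adar1-2KO against WT (0.0944%) or Adar1-2KO against Adar2KO (0.189%). At an unadjusted p under 0.05 stood 5, 6 and 1 of 118, where the backgrounds were 2.93%, 4.82% and 5.12%. Errors were wide, and forward-splice reads of a circle were often 0 in some libraries and not in others. For the Rbfox1 circle the junction ratio was 74.0%, 38.8% and 62.8% in WT and 63.1%, 80.9% and 71.3% in Adar2KO. These groups overlapped, and the log2 change was 0.85 with an SE of 3.12.

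Groups of host genes were described by counts and medians, since they were chosen with earlier results known. In every group 0 short circles passed on Illumina in any comparison. Among 44 splicing and circular RNA regulators with exonic circles, 25 hosted 60 short circles, and these took 14.8% of the group's exonic circle reads in WT, mainly through Rbfox1 (7428 reads), with 222 reads of Ptbp1 and 138 of Qk. The same share over all exonic circles was 2.41%. In 28 known abundant hosts of brain circles it was 0.123%, with 798 reads of Rims2 and 187 of Dlgap1, and in glutamatergic postsynaptic genes 0.471%. Chromatin regulators took 4.36%, mainly through Kmt2a, and ubiquitin ligases and deubiquitinases 4.45%. A list of mostly voltage-gated channels took 4.56%. Of its 2626 short-circle reads in WT, 2093 were of Kcnn2, a potassium channel gated by calcium and not by voltage, so this share is not one of voltage-gated channels. Presynaptic genes took 2.23%, of which Erc1 had 4501 reads.

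Cell type markers were counted as hosts. Of 8 neuronal markers with exonic circles, 7 hosted short circles, with 976 reads in WT, led by Rims2 and Rbfox3 (113 reads). Oligodendrocyte markers had 150 reads on short circles, led by Qk, and astrocyte markers 236, led by Npas3 (213 reads). Microglial markers had 0 of 312 exonic circle reads in WT, and endothelial and pericyte markers 4 of 206. As a share of the markers' own exonic circle reads, short circles held 0.578% in neuronal, 3.83% in oligodendrocyte and 5.48% in astrocyte markers. Over all exonic circles this share was 2.41%. Neuronal markers thus had the most short-circle reads but the lowest share of these. Among tested short circles, the median log2 fold change of Adar2KO against WT lay between 0.12 and 0.57 in 7 of the 8 host gene groups and was -0.40 in Zfp zinc finger genes, with 4 of 15 higher. It was 0.57 in presynaptic genes, with 8 of 12 higher, and 0.50 in glutamatergic postsynaptic genes, with 11 of 12 higher, beside 0.22 and 508 of 853 for all short circles. In Adar1-2KO against WT the 8 medians lay between -0.27 and 0.26, with -0.01 and 4 of 12 higher in presynaptic genes.

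The platforms were then compared to see whether ONT lists short circles less often than Illumina. Short circles took 2.47%, 2.00% and 2.86% of exonic circle reads in the 3 WT libraries on Illumina and 1.30% and 1.40% in WT replicates 2 and 3 on ONT. In Adar2KO the values were 3.07%, 2.42% and 3.30% on Illumina and 1.81%, 1.41% and 1.5% on ONT, and in Adar1-2KO 3.23%, 3.11% and 2.26% against 2.05%, 1.83% and 1.53%. ONT was lower in 8 of 8 pairs of libraries of the same genotype and number. The means were 2.75 ± 0.470% (SD, n = 9) and 1.61 ± 0.262% (n = 8), a ratio of 0.586 or a log2 difference of -0.77, with a two-sided exact permutation p of 0.000123 (adjusted 0.000247 over 8 tests). The test took all libraries as independent and did not use these pairs, so its p does not describe the paired differences. The same holds for the other permutation tests of shares between the platforms. Both shares are over exonic circles that Illumina listed, so circles only ONT lists do not enter.

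The share was lower on ONT in each class under 500 bases, and no such difference was found just above. The log2 difference was -0.95 for 137 to 199 bases, -0.79 for 200 to 299, -0.92 for 300 to 399 and -0.58 for 400 to 499, with exact permutation p adjusted over the 8 tests between 0.000219 and 0.00141. For 500 to 999 bases the shares were 7.07 ± 0.375% and 7.19 ± 0.419%, a log2 difference of 0.02 (exact permutation p = 0.557). Circles of 1000 to 9999 bases were lower on ONT by a log2 difference of -0.15 and those of 10000 bases or more higher by 0.13. Per circle, among the 286 short circles with at least 200 Illumina reads in the 8 matched libraries, the log2 ratio of ONT to Illumina share had a median of -0.57 and lay below 0 for 83.9%, against -0.16 and 59.5% for 500 to 999 bases. Of these 286 short circles, 22 were on no ONT library. The same held for 27 of 444 circles of 500 to 999 bases, 308 of 4092 of 1000 to 9999 and 612 of 5681 of 10000 or more. By this count the short circles lay between the longer classes and were not set apart.

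**Figure D4:**
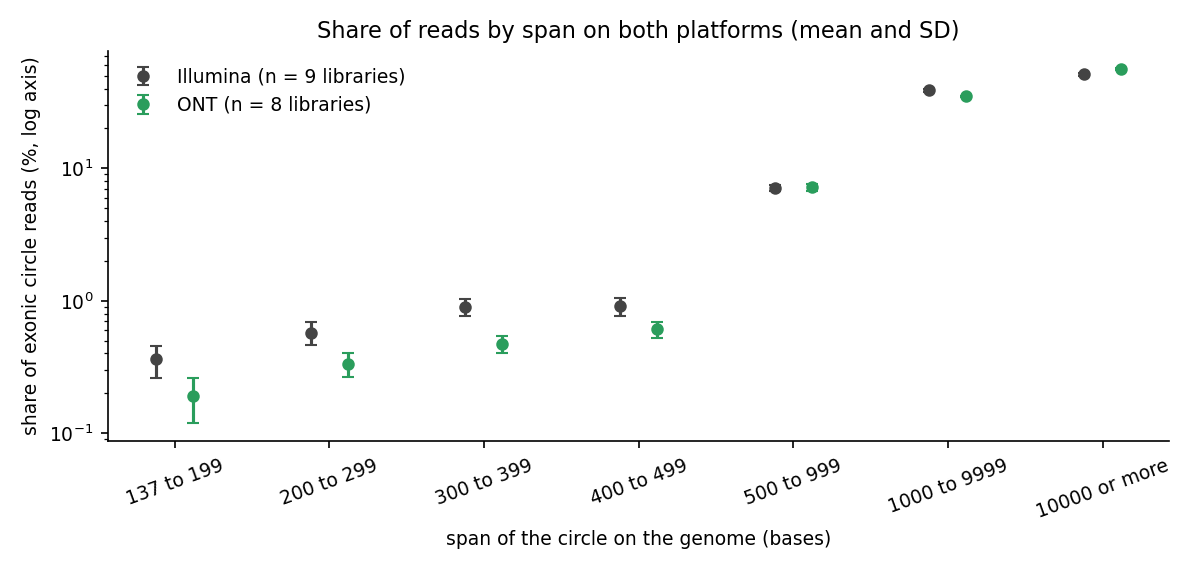
Share of exonic circle reads (y axis, percent, log axis) by span of the circle (x axis, bases) on Illumina (9 libraries) and ONT (8 libraries), as mean and SD. ONT lies below Illumina in the 4 classes under 500 bases, at 1.61% against 2.75% for all of them, and level with it at 500 to 999 bases.

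This difference turned when ONT circles were taken by their own class and span. ONT listed 8652 exonic circles under 500 bases, of which 11.5% were on Illumina, against 58.4% of its longer exonic circles. With all of them counted, short circles took 3.22 ± 0.614% of ONT exonic reads, a log2 difference of 0.22 to Illumina (exact permutation p = 0.102). The splice ends differ between these sets. Only 15.3% of the ONT circles under 500 bases had AG-GT ends without an asterisk, against 61.1% of longer ones and 92.1% of the short circles that both platforms list. With AG-GT ends without an asterisk required, the share was 1.76 ± 0.302% and the log2 difference -0.64 (exact permutation p = 0.000411). What the asterisk stands for is not given in the sources used here.

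Detection was compared at matched abundance, among circles listed by all 3 Illumina libraries of a genotype. Of short circles with a mean of 20 to 49 reads, an ONT library listed 47.4 ± 12.3% (SD, n = 8), against 59.8 ± 7.54% of longer exonic circles, lower in 8 of 8 libraries. The exact sign-flip permutation p was 0.0078, the smallest possible, and 0.0195 after adjustment over 5 classes. For 5 to 9, 10 to 19 and 50 to 99 reads the differences were -4.51, -9.35 and -5.45 percentage points, with adjusted exact permutation p of 0.25, 0.0521 and 0.0781. For 100 reads or more the direction was opposite, 91.4 ± 2.68% of short against 88.2 ± 2.21% of longer circles, higher in 8 of 8 (adjusted exact permutation p = 0.0195). In that class the median was 257 reads for short and 217 for longer circles. In the WT libraries these medians were close, 217 and 214.5, and the differences there were 4.57 and 1.16 points. The mean over the classes was -5.70 ± 4.04 points (exact permutation p = 0.0156). Adar1-2KO had only 6 to 36 short circles in each of the 3 lowest classes, as replicate 3 listed few.

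**Figure D5:**
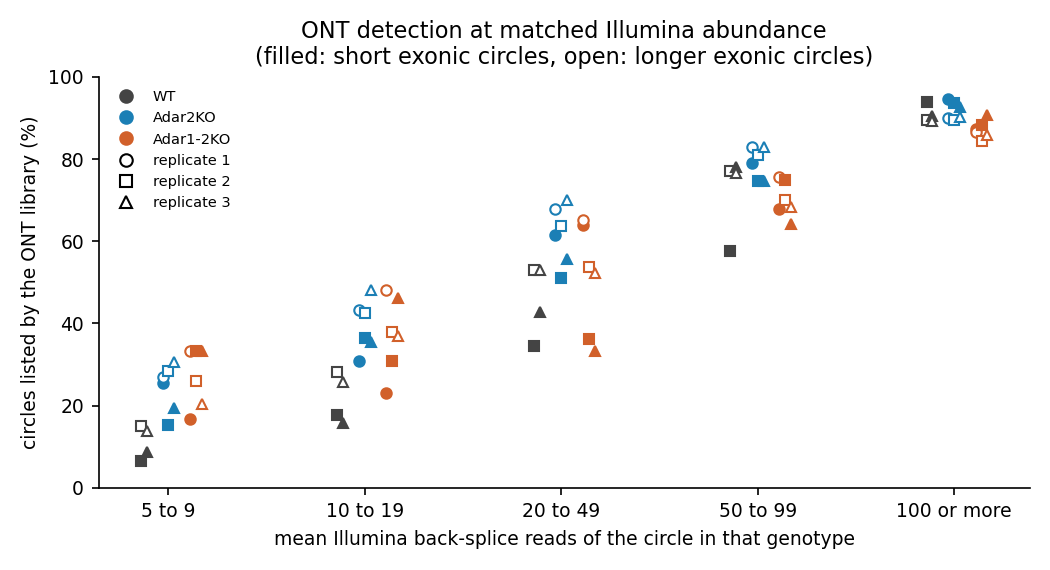
Percent of circles that an ONT library lists (y axis) against the mean Illumina back-splice reads of the circle in that genotype (x axis, classes), for short exonic circles (filled) and longer exonic circles (open), 1 symbol per ONT library. Filled symbols lie below open ones in all 8 libraries at 20 to 49 reads and above them at 100 reads or more.

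The 5 short circles with the most ONT reads were among the 10 most abundant on Illumina, those of Kmt2a (2144 reads), Pcmtd1 (1855), Rbfox1 (1527), Med13l (1083) and Erc1 (960). The 5 with the most Illumina reads that no ONT library listed were the 485-base Kmt2a circle with 4922 Illumina reads, those of Cstf3, a factor of mRNA 3′ end cleavage (316 bases, 2494 reads), Zfp445, a zinc finger gene (463 bases, 2442 reads), Pvt1 (388 bases, 1954 reads) and Frg2f1 (497 bases, 1085 reads). The near-copy of 488 bases was the only ONT circle within 5 bases of the Kmt2a circle. No ONT circle overlapped those of Cstf3, Pvt1 and Frg2f1, and 1 with 311 reads shared an end with that of Zfp445. The names of the ONT tables tell of a removal of repeat-masked and ribosomal sequence, and which circles it removed is not given in the sources used here. Its part in these absences was not tested.

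At the limit of 500 bases, the longest short circles tested were those of Hspa4l, Pappa and Emg1, each 499 bases, with 6.06 ± 0.915, 1.26 ± 2.18 and 22.8 ± 5.40 CPM in WT (SD, n = 3). The shortest circles outside were those of Asap1 and Pcm1, both 500 bases, and Pdzd2 with 502, at 2.51 ± 1.69, 16.2 ± 16.6 and 4.52 ± 3.88 CPM. The shortest ones tested were those of Fndc3a and Senp5 with 138 bases and Rbfox3 with 139. The Rbfox3 circle, an exon of untranslated sequence of a neuronal splicing factor, had 76, 37 and 0 reads in WT and 62, 72 and 0 in Adar2KO. Adar1-2KO had 99, 54 and 0 reads, and the junction ratio was 100% in each of the 6 libraries that listed it.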

How the data were processed

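Circular RNA was enriched from 5 ug of total brain RNA with RNase R after ribosomal RNA depletion, copied by random priming and amplified, per the labels' protocols. The cDNA was size-selected with beads before and after amplification, and Illumina libraries were selected for inserts of about 350 bp. Of the short circles, 61.8% were shorter than this insert. Per the submitters' processing notes, the tools were bcl2fastq, BWA 0.7.17 and CIRIquant 1.1.2 with GRCm39 (mm39), and DESeq2 2.11.40.8. The ONT caller is not given in the sources used here.

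The authors' CIRIquant tables hold counts of back-splice and forward-splice reads, a junction ratio as a fraction and an expression value in CPM of mapped reads. This deposited CPM was not used, and CPM in the text is computed from the counts. The deposited counts of the Adar1-2KO libraries sit 1 column to the right of their headings, and this was corrected. The deposited CIRI2 and ONT tables hold counts of reads. The authors' tables of comparisons hold log2 fold changes and p-values.

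Members were circles of the class exon with end minus start plus 1 below 500. Members, gene lists and tests were chosen with earlier results of these data known. All circles with at least 5 reads in 3 or more libraries were fitted with edgeR 4.0.16 (quasi-likelihood, TMM, all genotypes of a platform in 1 fit, Benjamini-Hochberg at 0.05), and ratios with limma 3.58.1. DESeq2 1.42.0 was an alternative. Scripts were tested on simulated data. Values per library were compared by exact permutation tests, which with few libraries limits the precision. The labels call the replicates biological. Exons came from GENCODE M21 by gene symbol and length.

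Named circles were, by rule, the 10 highest in WT, the called ones and up to 5 of lowest p per comparison, the 5 highest and lowest junction ratios, the 5 with most ONT reads, the 5 with most Illumina reads on no ONT library, the circles nearest the limit, the 5 hosts with most circles or reads and up to 3 hosts per list. Dynll2, St6galnac3, Lrp6, Ccdc173, Gse1 and Gm9222 were added after their values were seen. Some circles that met the rule are not reported here. The fits within flow cell 1, with mapped reads as library sizes and with forward-splice reads above 0, and the requirements on ONT splice ends, were alternatives chosen after seeing the data.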

Additional observations from a re-analysis of the deposited data

Results flagged for a closer look

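ONT lists exonic circles shorter than the shortest short circle on Illumina, 2577 in all, of which 230 have AG-GT ends without an asterisk. The shortest exonic circle that Illumina listed has 137 bases, so these were outside the comparisons. Why Illumina listed none this short was not tested. They are named here as reads in ONT data that no comparison used. The circle of Tlk1, a kinase of chromatin assembly (chr2:70617221-70617339, 119 bases), had 1300 ONT reads. WT libraries gave it 75 and 72 reads. The Adar2KO libraries had 234, 125 and 144 reads, while Adar1-2KO had 279, 118 and 253. The circle of Rnf121, a RING finger gene (chr7:101672519-101672620, 102 bases), had 391 reads and was listed in all 8 ONT libraries, with 20 to 79 reads each.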

How the results depend on the processing

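The limits are the 3 libraries per group, the few reads of most short circles and the spread that Adar1-2KO replicate 3 adds. The cause of the changes below was not tested. On Illumina the count of short circles called was 0 in all 3 comparisons. Without the limit on reads it was 2 for Adar2KO against WT, 14 for Adar1-2KO against WT and 12 between the mutants. With DESeq2 it was 4 in both comparisons of Adar1-2KO. With CIRI2 counts it was 1 in both, where the backgrounds over all circles were 0.0537% against WT and 0.0582% between the mutants. The CIRI2 fit also lacks Adar1-2KO replicate 1, and its call, the Gse1 circle, is the one made against WT with CIRIquant counts without that library. Leaving out 1 library gave 0 to 1 for Adar1-2KO against WT, with the 1 call made without Adar1-2KO replicate 1 (background 0.0545%). On ONT, the 4 calls between the mutants became 1 to 7 without 1 library, the most without Adar1-2KO replicate 3. The background over all circles moved as well, from 0.473% to between 0.0875% and 1.22%, the highest also without Adar1-2KO replicate 3. Circular share calls went from 0 to at most 1, 2 and 2 in the order Adar2KO against WT, Adar1-2KO against WT and between the mutants, without WT replicate 1, Adar1-2KO replicate 1 or Adar1-2KO replicate 3. In the fits with such calls the background was 0.168% to 1.23%.

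The share of listed circles that are short differed by 0.0225 percentage points between Adar1-2KO and WT, by -0.117 with at least 5 reads, and by -0.0996 to 0.237 without 1 library. The median junction ratio of Adar2KO minus WT went from 0.362 to -0.913 with at least 5 reads and ran from -0.410 to 1.23 without 1 library, and the difference from longer circles ran from -1.70 to 0.201. The ONT to Illumina log2 difference was 0.22 with ONT circles by their own class, and -0.83 to -0.73 without 1 library.

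The replicate numbers did not pair the libraries, as correlations of same-numbered libraries lay between -0.03 and 0.02. With the replicate number as a block, 0 short circles were called on Illumina in each comparison, 2 on ONT between the mutants (background 0.27%) and 0 for the circular share. The median log2 fold change of short circles was then -0.46 for Adar1-2KO against WT and -0.64 between the mutants on Illumina.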
